A study of Mus musculus with 24 samples.

Results

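The 6 transcripts described here encode subunits of the NMDA receptor, and were taken as the rows with the symbols Grin1, Grin2a, Grin2b, Grin2c, Grin2d and Grin3a among the 49568 gene symbols counted in every library. The rule was by name, and the set was chosen with earlier results of these data known. Poly(A) RNA was sequenced from the hippocampus of aged male mice, 21 to 23 months old, on a C57-Bl/6J background, in 24 libraries of 1 mouse each. WTSH and WTEE mice were wild type, and KDSH and KDEE mice (MSK1 KD) were homozygous for a knock-in point mutation after which MSK1 is a dead kinase. SH mice stayed in standard housing, and EE mice were moved at 18 months to enriched housing, a large cage with a running wheel and objects to explore. WT and MSK1 KD mice came from separately bred lines, so line and mutation cannot be told apart. The mutation is present in every cell from conception, and no group received a drug or a vector. Each group held 6 libraries, of which the study left out WTSH 4, WTSH 7 and KDSH 6 after quality control, leaving 4 WTSH, 6 WTEE, 5 KDSH and 6 KDEE. Library names join the group and the number of the mouse.

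The NMDA receptor is a glutamate-gated channel that passes calcium and opens only when glutamate and a co-agonist, glycine or D-serine, are bound while the membrane is depolarised. It is an assembly of 4 subunits in which GluN1 (Grin1) is obligatory and is joined by GluN2 (Grin2a to Grin2d) or GluN3 (Grin3a) subunits. In the forebrain GluN2B dominates early in life and GluN2A rises as synapses mature, so the balance of Grin2a to Grin2b is a customary index of receptor composition. In the hippocampus the receptor triggers long-term potentiation and long-term depression. MSK1 is a nuclear kinase activated by BDNF signalling, and among its substrates is CREB, a transcription factor that binds cyclic AMP response elements.

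All 6 genes lie on the minus strand of GRCm38 and are protein coding. Grin1 spans chr2:25291181-25319187, Grin2a chr16:9567898-9995560, Grin2b chr6:135713233-136173511, Grin2c chr11:115249169-115267243, Grin2d chr7:45831883-45878378 and Grin3a chr4:49661611-49845744. Reads were counted over annotated exons without regard to strand, and 13.5% of the exon bases of Grin1 (1307 bases) are shared with the antisense transcript Grin1os. For Grin2d 9.66% (643 bases) are shared with the antisense gene Gm45441, and for Grin2b and Grin2c 1.12% and 1.81% are shared with short genes on the opposite strand. Grin2a and Grin3a share none. Without strand, a read pair on shared bases cannot be assigned to 1 gene. HTSeq by default sets such pairs apart as ambiguous, so they are missing from the counts of both genes. The levels per kilobase given below still divide by all exon bases, shared ones included.

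RefSeq promoter windows of 300 bases around the transcription start (GRCm38.p6) were present for 3 of the 6 members, Grin1, Grin2c and Grin2d. The Grin2d window (chr7:45866632-45866931) lies inside the gene span given above and not at its 5′ end, 45878378, so it describes another start. The windows of Grin1 and Grin2c are shown because the correlation of this pair across mice had an adjusted p under 0.05 by r, though not by rho, as given further on. Capitals mark matches on either strand to TGACG, the core of the cyclic AMP response element. Both sequences read 5′ to 3′ along the gene's own strand, which is the minus strand.
Grin1 (chr2:25319138-25319437): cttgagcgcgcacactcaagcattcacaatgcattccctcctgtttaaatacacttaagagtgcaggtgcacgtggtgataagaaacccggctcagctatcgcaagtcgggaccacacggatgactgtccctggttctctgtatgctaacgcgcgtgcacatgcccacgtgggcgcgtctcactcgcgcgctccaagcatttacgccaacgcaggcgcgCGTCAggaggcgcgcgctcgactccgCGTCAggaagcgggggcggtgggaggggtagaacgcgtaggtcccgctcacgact
Grin2c (chr11:115267194-115267493): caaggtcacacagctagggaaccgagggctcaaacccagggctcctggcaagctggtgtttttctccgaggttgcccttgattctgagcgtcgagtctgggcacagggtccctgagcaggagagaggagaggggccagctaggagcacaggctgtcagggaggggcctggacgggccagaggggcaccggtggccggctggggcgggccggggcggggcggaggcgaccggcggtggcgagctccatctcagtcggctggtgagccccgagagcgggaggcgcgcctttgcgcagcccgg
The Grin1 window held 2 matches to TGACG, and the windows of Grin2c and Grin2d held 0. The full palindrome TGACGTCA, which contains TGACG, had 0 matches in each. The Sp1-type motif GGGCGG had 1 match in Grin1, 3 in Grin2c and 0 in Grin2d. Of 32851 promoter windows of this length, 20.8% held TGACG, 1.79% TGACGTCA and 35.7% GGGCGG. GC content was 60.7% in the Grin1 window, 70.0% in Grin2c and 56.0% in Grin2d, against a median of 52.7% over all windows. These matches describe letters in a window, and binding was not measured.

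Counts on genes ranged from 27410239 to 71907130 in the 21 libraries kept (median 47549989), and the lowest of all 24 was 15800187, in WTSH 4. Levels are given as CPM, counts scaled to a common library size, after TMM scaling, which adjusts each library for its composition. Over the 21 libraries each member had at least 459 counts, the lowest value of Grin2d, so none was near the limit of detection. Rps6ka5, the gene of MSK1, ranged from 20.5 to 24.5 CPM in 20 of these libraries, and a point mutation is not visible in gene counts. Library WTEE 10 stood apart, with Rps6ka5 at 13.5 CPM, and it was the highest of the 21 libraries for 27.1% and the lowest for 29.0% of the 20187 genes tested. In it the markers of CA1 and CA3 pyramidal cells summed to 619 and 136 CPM, below the other 20 libraries (620 to 817 CPM and 159 to 196 CPM), while the list of structural RNAs summed to 10980 CPM, above all but 1 of them. The mean log2 level of the general neuronal markers in WTEE 10, 8.93, lay within the range of the others, 8.76 to 9.02, but 2 of the 6 genes of that list (Rbfox3 and Syt1) were the lowest of the 21 libraries and 3 (Stmn2, Tubb3 and Nefl) the highest. Of the CA1 and CA3 markers, 2 of 5 and 3 of 5 were the lowest of the 21 libraries in WTEE 10, and 0 the highest. The mean log2 level of the endothelial list was 5.32 in WTEE 10 and 4.68 to 5.31 in the others, and that of oligodendrocyte precursors 5.47 and 5.70 to 6.07. Members of both lists were split, with Cldn5 and Pecam1 the highest of the 21 libraries in WTEE 10 and Flt1 the lowest. Of the 4 precursor genes 3 were the lowest, while Olig1 was at 217 CPM, above its median of 166 CPM. In whole tissue, fewer cells of a type and less RNA per cell cannot be told apart.

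Per kilobase of exon, Grin1 was the most abundant subunit, at 38.0 ± 2.69 CPM per kilobase (SD, n = 21). Grin2b followed at 22.1 ± 3.53, then Grin2c at 14.2 ± 1.04 and Grin2a at 12.9 ± 1.59 CPM per kilobase. Grin3a, at 3.62 ± 0.366, and Grin2d, at 2.78 ± 0.313 CPM per kilobase, were the lowest. The order held in every library between Grin1 and Grin2b, between Grin2a and Grin3a, and between Grin3a and Grin2d. Grin2b was above Grin2c in 20 of 21 libraries, the exception being WTEE 10. Grin2c was above Grin2a in 12 of 21 libraries, so these neighbours did not differ beyond their spread. With the longest transcript as the length in place of all exons, Grin2c was above Grin2a in only 7 of 21 libraries, so their order depends on the length used. Of the summed level per kilobase of the 4 Grin2 genes, Grin2b made up 42.3% ± 3.88, Grin2c 27.4% ± 3.02, Grin2a 24.9% ± 2.48 and Grin2d 5.39% ± 0.719 (SD, n = 21).

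**Figure D1:**
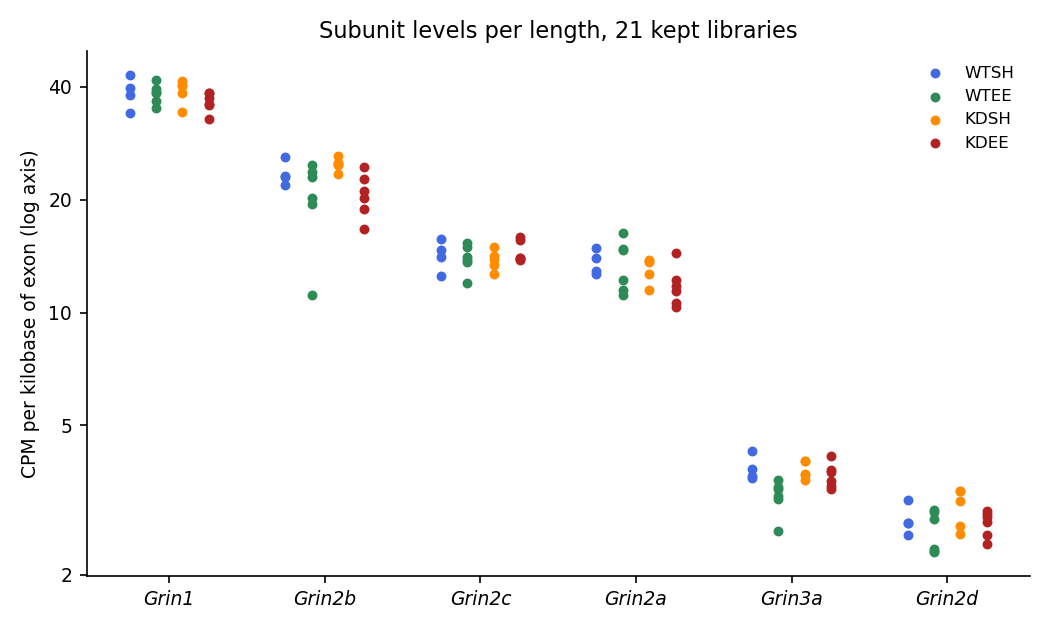
Levels of the 6 subunit genes in CPM per kilobase of exon (log axis), 1 point per kept library, coloured by group and ordered by mean. Grin1 lies above every other gene in each of the 21 libraries, Grin2c and Grin2a overlap, and the single low Grin2b point is WTEE 10.

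No member passed the thresholds of the study, an adjusted p under 0.05 together with a log2 fold change beyond 0.38 in either direction, in any comparison by edgeR's quasi-likelihood test. Over all 20187 genes tested 0 genes (0%) passed in each of the 4 comparisons of 2 groups, in the average effect of genotype and in the interaction, and 1 gene (0.00495%) passed for housing averaged over the genotypes. At an unadjusted p under 0.05 edgeR found 1322 genes (6.55%) for WTEE against WTSH, 2345 (11.6%) for KDEE against KDSH, 202 (1%) for KDSH against WTSH and 1007 (4.99%) for KDEE against WTEE, with 383 (1.9%) for genotype and 659 (3.26%) for the interaction. DESeq2's Wald test called 2 (0.00529%), 14 (0.0866%), 0 (0%) and 118 genes (0.438%) in the same 4 comparisons, 41 (0.233%) for housing, 0 (0%) for genotype and 20 (0.0762%) for the interaction, with 0 members among them in each. The DESeq2 shares are over the genes to which it gave an adjusted p. These numbered 37779, 16167, 37779 and 26970 in the 4 comparisons, 17608 for housing, 37779 for genotype and 26250 for the interaction. The fitted differences of the members ranged from a log2 fold change of -0.27 for Grin2b (KDEE against KDSH) to 0.19 for Grin3a (KDEE against WTEE). The 95% intervals of Grin1 and Grin2c lay inside 0.38 in either direction in all 4 comparisons of 2 groups, while those of Grin2b reached past it in 3 of the 4.

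**Figure D2:**
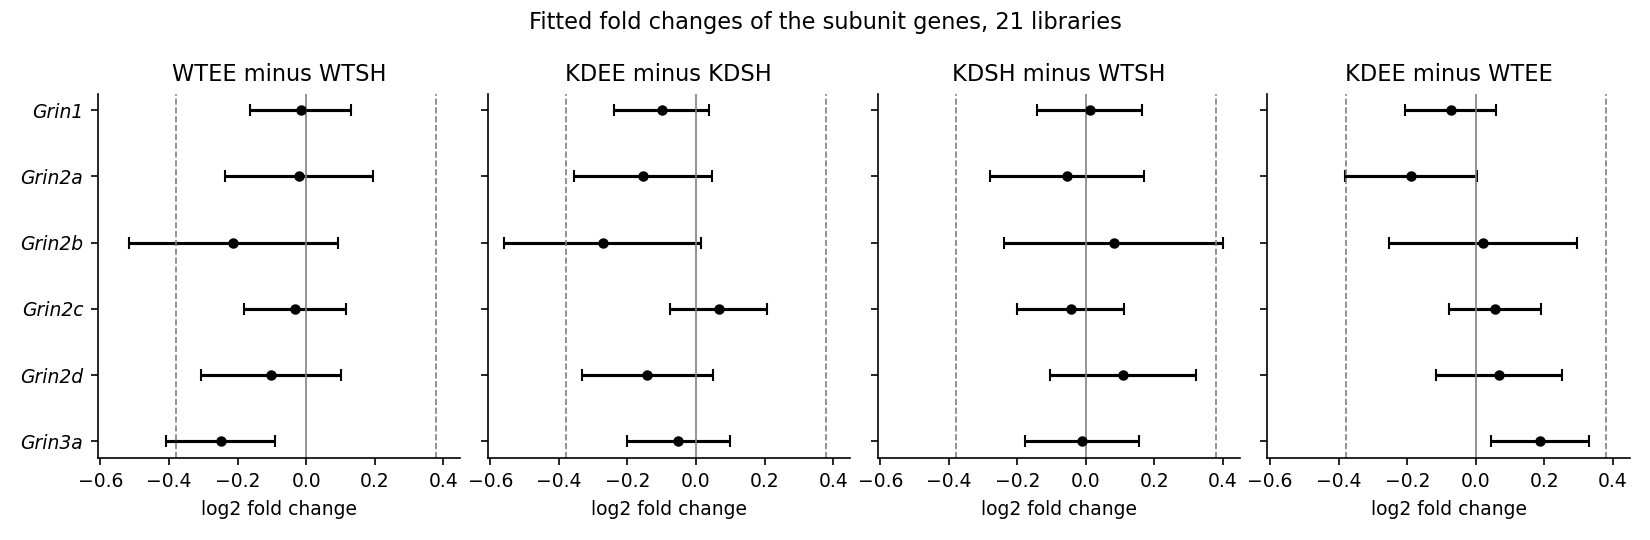
Fitted log2 fold changes (points) with 95% intervals (bars) from edgeR for the 6 subunit genes in the 4 comparisons of 2 groups, 21 libraries; dashed lines mark the threshold of 0.38. The intervals that leave out 0 are those of Grin3a, for WTEE minus WTSH and for KDEE minus WTEE.

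**Figure D3:**
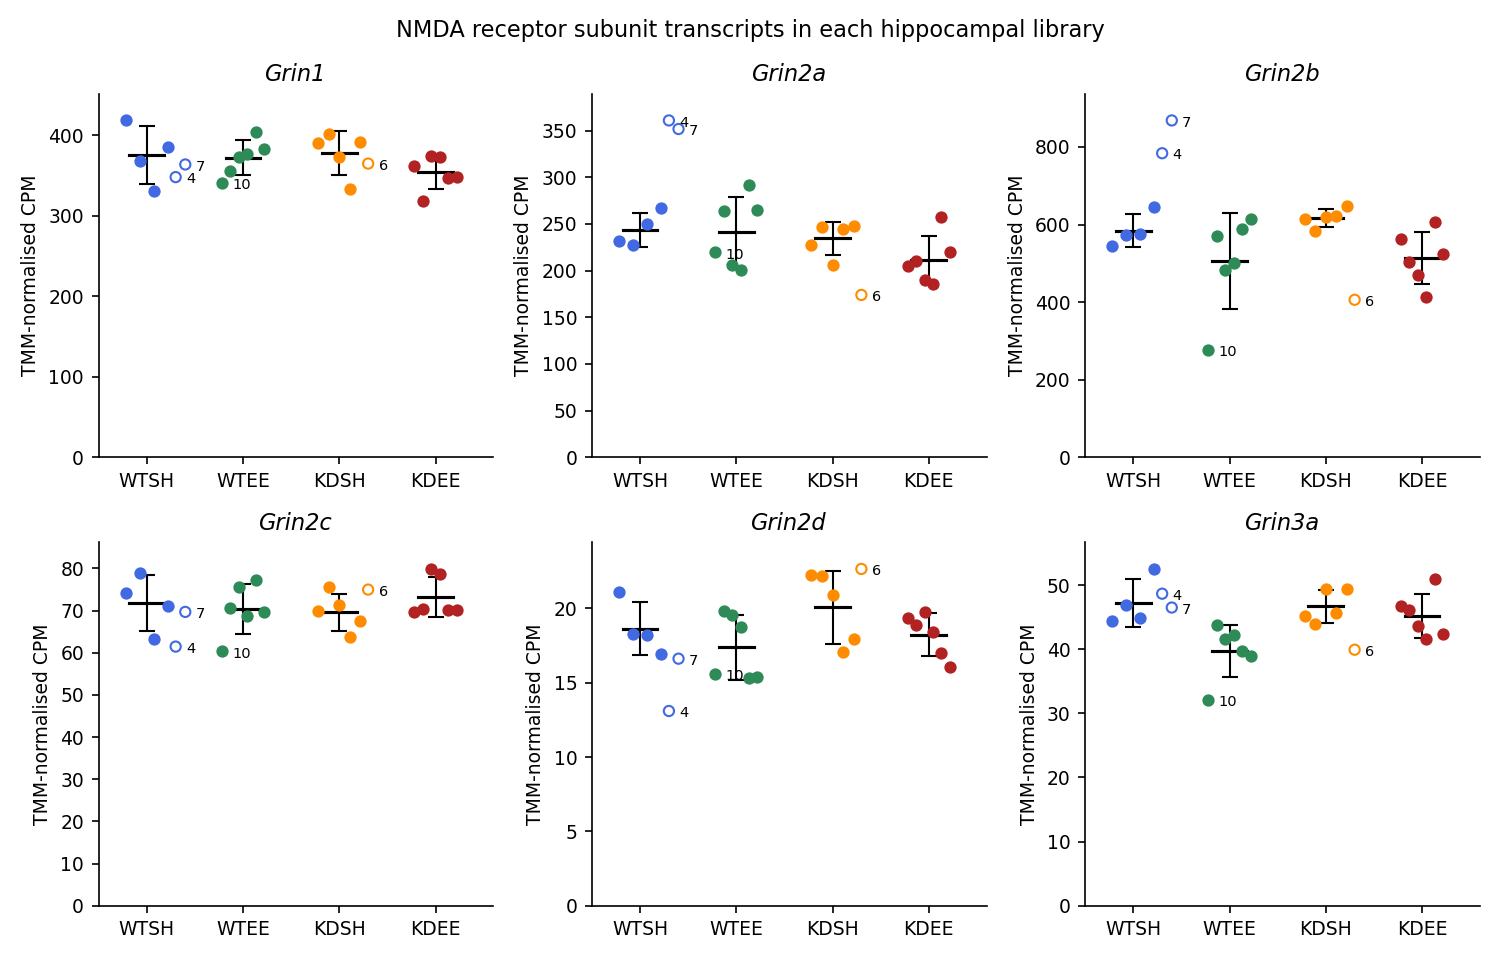
TMM-normalised CPM of each subunit gene by group, 1 point per mouse, with the mean and SD of the kept libraries (bar and whiskers); hollow points are the libraries left out by the study and numbers name them and WTEE 10. Grin2b and Grin3a are lowest in WTEE 10, and libraries 4 and 7 lie above all kept libraries for Grin2a and Grin2b.

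Grin1, the subunit that every NMDA receptor needs, was nearly level across the groups. Its mean was 375 ± 36.5 CPM in WTSH (SD, n = 4), 372 ± 21.9 in WTEE (n = 6), 378 ± 27.3 in KDSH (n = 5) and 354 ± 21.2 CPM in KDEE (n = 6). The ranges overlapped in every pair of groups, and the lowest single library was KDEE 12, at 318 CPM. The largest of its fitted differences was a log2 fold change of -0.10 ± 0.067 (SE) for KDEE against KDSH, with a 95% interval of -0.24 to 0.039 and an adjusted p of 0.529 by edgeR. For WTEE against WTSH the log2 fold change was -0.02, with an interval of -0.16 to 0.13.

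Grin2b encodes GluN2B, which gives the channel slow decay and binds CaMKII. Its levels were 544, 573, 576 and 645 CPM in the 4 WTSH libraries. In KDSH they were 583, 614, 619, 623 and 648 CPM. In WTEE the lowest, median and highest were 276, 536 and 614 CPM, and in KDEE 414, 514 and 606 CPM. The enriched groups reached lower than the standard-housed groups of the same genotype, but the ranges overlapped in both genotypes. The log2 fold change was -0.21 ± 0.15 (SE) for WTEE against WTSH and -0.27 ± 0.14 for KDEE against KDSH, with adjusted p values of 0.651 and 0.448 by edgeR. Averaged over genotypes the housing difference was -0.24 ± 0.10, with an unadjusted p of 0.0258 and an adjusted p of 0.24 by edgeR. The interaction of housing and genotype was 0.06 ± 0.20. Without WTEE 10 the WTEE to WTSH difference shrank to -0.08 and the housing average to -0.175, with an unadjusted p of 0.0101 and an adjusted p of 0.148 by edgeR. For KDEE against KDSH the estimate was then -0.27, with an adjusted p of 0.101 by edgeR. The adjusted p of that comparison ran from 0.101 to 0.693 over 30 alternatives. Between genotypes the difference was 0.08 ± 0.15 in standard housing and 0.02 ± 0.13 in enriched housing, and the latter turned to -0.10 without WTEE 10.

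Grin2a encodes GluN2A, which gives faster decay. It measured 227, 231, 250 and 267 CPM in WTSH and 206, 227, 245, 246 and 248 CPM in KDSH. The lowest, median and highest libraries held 200, 242 and 291 CPM in WTEE and 185, 208 and 258 CPM in KDEE. Every pair of groups overlapped, and KDEE had the lowest mean, 211 ± 26.1 CPM (SD, n = 6), against 241 ± 37.4 in WTEE (n = 6). The log2 fold change for KDEE against WTEE was -0.19 ± 0.093 (SE), with an unadjusted p of 0.054 and an adjusted p of 0.957 by edgeR. Without WTEE 10 it was -0.21, with an unadjusted p of 0.0385 and an adjusted p of 0.862 by edgeR, and over 30 alternatives the adjusted p ran from 0.61 to 0.995. For housing the log2 fold change was -0.02 ± 0.10 in WT and -0.15 ± 0.097 in MSK1 KD mice, and for KDSH against WTSH it was -0.06 ± 0.11.

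The ratio of Grin2a to Grin2b was taken within each library from the raw counts, so that the scaling between libraries cancels. It is a ratio of counts, not corrected for the different lengths of the transcripts, and is comparable between libraries only. The median over the 21 libraries was 0.419 Grin2a counts per Grin2b count, from 0.333 in KDSH 8 to 0.796 in WTEE 10. The 20 other libraries reached at most 0.495. On the log2 scale the WTSH libraries lay at -1.34, -1.27, -1.23 and -1.20, and the KDSH libraries at -1.59, -1.44, -1.39, -1.35 and -1.24. The lowest, median and highest were -1.32, -1.16 and -0.33 in WTEE and -1.46, -1.26 and -1.16 in KDEE. The groups overlapped in every comparison, and the KDSH values reached the lowest.

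Group means of the log2 ratio were -1.26 ± 0.057 in WTSH (SD, n = 4), -1.04 ± 0.36 in WTEE (n = 6), -1.40 ± 0.13 in KDSH (n = 5) and -1.28 ± 0.10 in KDEE (n = 6). The largest contrast relative to its error was that of genotype, MSK1 KD lower than WT by 0.19 on the log2 scale with housing as stratum (-0.19 ± 0.083, SE). The exact two-sided permutation p was 0.00944, and 0.0566 after adjustment over 6 comparisons, so it did not pass. In standard housing alone the difference was -0.14 ± 0.063 (exact permutation p = 0.0635, adjusted 0.125) and in enriched housing -0.24 ± 0.15 (exact permutation p = 0.0844, adjusted 0.125). For housing the ratio was higher in enriched mice by 0.17 ± 0.083 over both genotypes (exact permutation p = 0.0531, adjusted 0.125). Within WT mice the housing difference was 0.22 ± 0.15 (exact permutation p = 0.262, adjusted 0.262), and within MSK1 KD mice 0.12 ± 0.070 (exact permutation p = 0.104, adjusted 0.125). The interaction was 0.10 ± 0.17 (SE) and was not tested.

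Single libraries moved these values. Without WTEE 10 the genotype difference shrank to -0.12 (exact permutation p = 0.0196, adjusted 0.117) and the housing difference to 0.10 (exact permutation p = 0.0402, adjusted 0.121). The KDEE to WTEE difference became -0.10 (exact permutation p = 0.169, adjusted 0.203), and that of WTEE to WTSH 0.08. The interaction turned to -0.041, and leaving out each library in turn it ran from -0.041 to 0.158. In the other direction, leaving out WTEE 13, WTEE 16, WTEE 21 or KDSH 3 took the adjusted p of the genotype difference to 0.0348, 0.0119, 0.0412 and 0.0184 in exact permutation tests. Leaving out WTEE 16 also took the housing difference and the difference of KDEE and WTEE to an adjusted p of 0.0331 in exact permutation tests. A difference of genotype in this ratio thus passed or missed the threshold according to which mouse was left out.

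**Figure D4:**
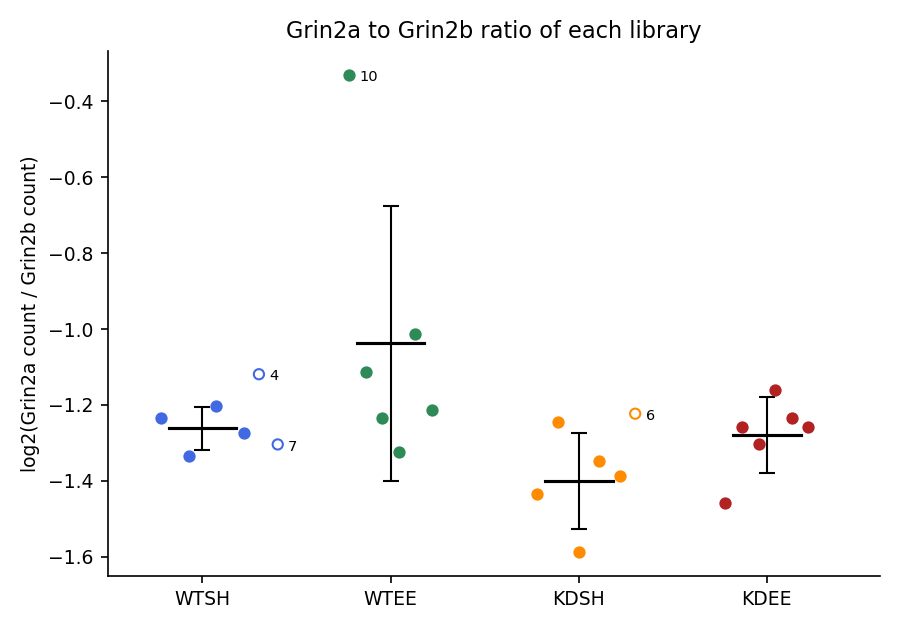
Log2 ratio of Grin2a to Grin2b raw counts in each library by group, 1 point per mouse, with the mean and SD of the kept libraries; hollow points are the libraries left out by the study. WTEE 10, at -0.33, lies far above all other libraries, which run from -1.59 to -1.01.

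Grin2c and Grin2d encode GluN2C and GluN2D, subunits that lower the sensitivity of the channel to magnesium block and that are found outside principal neurons in much of the forebrain. Grin2c measured 71.8 ± 6.65 CPM in WTSH (SD, n = 4), 70.4 ± 5.998 in WTEE (n = 6), 69.6 ± 4.42 in KDSH (n = 5) and 73.1 ± 4.78 CPM in KDEE (n = 6). It spread little between mice, with a coefficient of variation of 7.33% over the 21 libraries, close to that of Grin1 at 7.07%. Its log2 fold changes ran from -0.04 for KDSH against WTSH to 0.07 for KDEE against KDSH. Grin2d was the least abundant member, at 18.6 ± 1.76 CPM in WTSH (n = 4), 17.4 ± 2.18 in WTEE (n = 6), 20.1 ± 2.43 in KDSH (n = 5) and 18.2 ± 1.43 CPM in KDEE (n = 6). For Grin2d the housing log2 fold change was -0.10 ± 0.098 (SE) in WT and -0.14 ± 0.092 in MSK1 KD mice, and their average had an unadjusted p of 0.0846 and an adjusted p of 0.31 by edgeR.

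Grin3a encodes GluN3A, a glycine-binding subunit that reduces the calcium permeability of the channel. Its levels were 44.4, 44.8, 46.8 and 52.5 CPM in WTSH and 44.0, 45.2, 45.6, 49.4 and 49.4 CPM in KDSH. In WTEE the lowest, median and highest were 32.1, 40.7 and 43.8 CPM, and in KDEE 41.6, 44.9 and 51.0 CPM. All 6 WTEE libraries lay below all 4 WTSH libraries, whereas KDEE overlapped KDSH. Of all genes tested, 0.481% had WTEE libraries wholly below WTSH. The log2 fold change for WTEE against WTSH was -0.25 ± 0.076 (SE), with a 95% interval of -0.41 to -0.09 and an unadjusted p of 0.0036. Its adjusted p was 0.651 by edgeR and ran from 0.246 to 1 over 30 alternatives, so it did not pass, although 1 member of 6 had an unadjusted p under 0.05 and lay lower, against 2.6% of all genes. Without WTEE 10 the log2 fold change was -0.19, with an unadjusted p of 0.00519 and an adjusted p of 1 by edgeR. The structural RNA list had a mean log2 level of 4.77 in WTSH (2.56 to 9.11) and 6.95 in WTEE (6.14 to 7.93). Across the 21 mice Grin3a and that list had r = -0.59 (permutation p = 0.056, adjusted 0.168) and rho = -0.66 (permutation p = 0.0707, adjusted 0.194), and r = -0.68 without the 2 farthest libraries. Grin3a and the endothelial list had r = -0.60 (permutation p = 0.0036, adjusted 0.0351) and rho = -0.46 (permutation p = 0.0496, adjusted 0.184), with r = -0.48 without the 2 farthest, and without WTEE 10 r was -0.475 (adjusted permutation p = 0.136). The part of these lists in the Grin3a difference was not tested.

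In MSK1 KD mice the housing difference of Grin3a was -0.05 ± 0.072 (SE), with a 95% interval of -0.20 to 0.098. KDEE lay above WTEE by 0.19 ± 0.069 on the log2 scale, with an unadjusted p of 0.0129 and an adjusted p of 0.615 by edgeR, and 1.77% of all genes were higher at an unadjusted p under 0.05 in that comparison. The interaction itself, the WT housing difference minus that of MSK1 KD, was -0.20 ± 0.11 with a 95% interval of -0.42 to 0.02, an unadjusted p of 0.0732 and an adjusted p of 1 by edgeR. The housing differences of the 2 genotypes were therefore not shown to differ. Averaged over genotypes the housing log2 fold change was -0.15 ± 0.052, with an unadjusted p of 0.00911 and an adjusted p of 0.211 by edgeR. Grin2b and Grin3a were the 2 members of 6 that lay lower at an unadjusted p under 0.05 for housing, where 9.13% of all genes did.

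The 62 genes of 6 pathway lists around the receptor were described in the same fits, and 0 of the 62 passed the thresholds in any comparison by edgeR or DESeq2. In WTEE against WTSH 27 of the 62 had a positive log2 fold change and 35 a negative one, with a median of -0.03 against 0.007 over all genes. In KDEE against KDSH 21 were positive and 41 negative, with a median of -0.03 against 0.002 over all genes. By list, the 10 genes of co-agonist synthesis and transport had a median log2 fold change of 0.096 in WT and 0.13 in MSK1 KD mice for housing. The 11 scaffold genes of the postsynaptic density had medians of -0.12 and -0.06, with 10 of 11 and 9 of 11 negative. The 15 kinases and phosphatases had medians of 0.001 and -0.04, the 7 genes of Ras and nitric oxide signalling -0.05 and -0.13, the 10 trafficking genes 0.002 and -0.002, and the 9 partners and regulators -0.09 and -0.03. These lists were counted and not tested as sets. Between genotypes in standard housing 36 of the 62 were positive and 26 negative, with a median of 0.009, and in enriched housing 37 were positive and 25 negative, with a median of 0.02.

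Psat1 and Actn2 were the pathway genes with an unadjusted p under 0.01 in any comparison of 2 groups. Both came from KDEE against KDSH. In that comparison 2 of the 62 pathway genes lay higher and 1 lower at an unadjusted p under 0.05 by edgeR. Of all genes, 11.6% had such a p in either direction. Psat1, an enzyme of L-serine synthesis upstream of D-serine, measured 102, 110, 112, 112 and 131 CPM in KDSH, and 117, 135 and 139 CPM as lowest, median and highest in KDEE. The groups overlapped through KDSH 18 at 131 CPM. Its log2 fold change for KDEE against KDSH was 0.21 ± 0.068 (SE) with an adjusted p of 0.35 by edgeR, and for WTEE against WTSH 0.11 ± 0.073. Actn2, an actin-crosslinking protein that binds GluN1 and GluN2B, measured 14.9, 16.5, 16.7, 20.2 and 20.9 CPM in KDSH. In KDEE its lowest, median and highest were 12.9, 14.7 and 15.8 CPM, overlapping KDSH through KDSH 18. Its log2 fold change was -0.29 ± 0.096 for KDEE against KDSH, with an adjusted p of 0.357, and -0.22 ± 0.10 for WTEE against WTSH, with an adjusted p of 0.651 by edgeR. Nos1, the neuronal nitric oxide synthase tethered to the receptor by PSD-95, and Neto1, an auxiliary protein of glutamate receptors, were singled out after their values were seen. Nos1 measured 113, 124, 125 and 142 CPM in WTSH, and 44.8, 104 and 112 CPM as lowest, median and highest in WTEE, where WTEE 10 was the lowest. All 6 WTEE libraries lay below the 4 WTSH libraries, as for 0.481% of all genes, and the log2 fold change was -0.43 ± 0.16, with an adjusted p of 0.651 by edgeR. Without WTEE 10 it was -0.28, with an adjusted p of 1 by edgeR. Neto1 measured 88.35 to 97.5 CPM in WTSH and 39.7 to 88.2 CPM in WTEE, again without overlap, with a log2 fold change of -0.25 ± 0.14 (adjusted p = 0.651 by edgeR) that was -0.12 without WTEE 10 (adjusted p = 1 by edgeR). For KDEE against KDSH both genes also lay lower, though these groups overlapped. The log2 fold change there was -0.24 ± 0.15 for Nos1 (adjusted p = 0.519 by edgeR) and -0.22 ± 0.13 for Neto1 (adjusted p = 0.5 by edgeR). Without WTEE 10 these were -0.23 (adjusted p = 0.118 by edgeR) and -0.21 (adjusted p = 0.0905 by edgeR). Rest and Slc7a10 went the other way for KDEE against KDSH. Rest lay higher without overlap, with a log2 fold change of 0.20 ± 0.11 (adjusted p = 0.468 by edgeR). Slc7a10 lay higher with overlap, by 0.39 ± 0.15, with an unadjusted p of 0.0151 and an adjusted p of 0.383 by edgeR. Grin3b, the other GluN3 gene, was at most 0.425 CPM in the 21 libraries.

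Across the 21 mice, member levels (log2 CPM) were correlated in 15 pairs, with permutation tests that shuffled mice within groups. Grin1 and Grin2c had r = 0.56 (permutation p = 0.0013, adjusted 0.0195) and rho = 0.40 (permutation p = 0.0226, adjusted 0.113), and r = 0.55 without the 2 libraries farthest from the median of Grin2c. Grin2b and Grin3a had r = 0.76 (permutation p = 0.00263, adjusted 0.0197) and rho = 0.595 (permutation p = 0.00843, adjusted 0.0632). Without the 2 farthest libraries the r of Grin2b and Grin3a fell to 0.43, and without WTEE 10 it was 0.49 (adjusted permutation p = 0.0994), so this relation rests in large part on 1 mouse. Grin2a and Grin2b had r = 0.51 (permutation p = 0.0255, adjusted 0.128) and rho = 0.66 (permutation p = 0.00116, adjusted 0.0174), and r was 0.69 without the 2 farthest libraries and 0.745 without WTEE 10 (adjusted permutation p = 0.0117). Of the 15 pairs, 0 passed by both r and rho. Genes of 1 library share its scaling and composition, so their levels are not independent measurements.

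**Figure D5:**
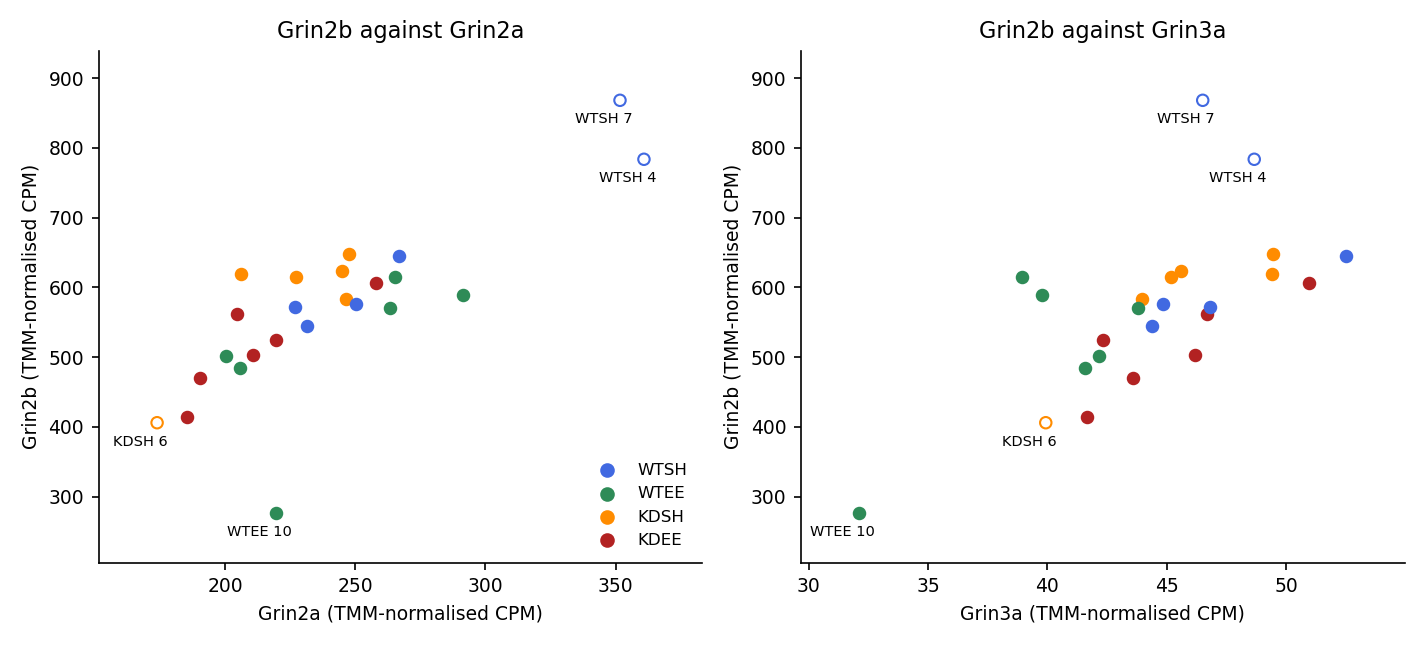
Grin2b against Grin2a (left) and against Grin3a (right) in TMM-normalised CPM, 1 point per mouse coloured by group, with hollow points for the libraries left out by the study. WTEE 10 is low for Grin2b and Grin3a but not for Grin2a (220 CPM), and WTSH 4 and 7 are high for Grin2a and Grin2b but not for Grin3a.

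The members were also set against 13 lists of markers of cell types, hippocampal fields, thalamus and cerebellum, and structural RNA. Of these 78 relations, 4 passed by both r and rho. Grin2c followed the CA1 list, with r = 0.74 (permutation p = 0.00014, adjusted 0.0109) and rho = 0.65 (permutation p = 0.00199, adjusted 0.0388), and r = 0.57 without the 2 farthest libraries. Without WTEE 10 its r was 0.66 (adjusted permutation p = 0.0421). Grin2d followed the same list, with r = 0.725 (permutation p = 0.0018, adjusted 0.0316) and rho = 0.72 (permutation p = 0.00178, adjusted 0.0388), and r = 0.75 without the 2 farthest and 0.68 without WTEE 10 (adjusted permutation p = 0.0439). Grin1 had r = 0.59 (permutation p = 0.00225, adjusted 0.0316) and rho = 0.595 (permutation p = 0.00286, adjusted 0.0446) with the CA1 list, and r = 0.47 without the 2 farthest. Without WTEE 10 it no longer passed (r = 0.56, adjusted permutation p = 0.0643). With the general neuronal list Grin1 had a higher r, 0.76 (permutation p = 0.00082, adjusted 0.0316). The rho of 0.66 missed the threshold (permutation p = 0.00453, adjusted 0.0518). Without WTEE 10 the r of Grin1 with the neuronal list was 0.80 (adjusted permutation p = 0.025). Grin2b ran against the endothelial list, with r = -0.67 (permutation p = 0.00189, adjusted 0.0316) and rho = -0.745 (permutation p = 0.00028, adjusted 0.0218), and r = -0.65 without the 2 farthest. The relation of Grin2b to the endothelial list did not pass without WTEE 10 (r = -0.61, adjusted permutation p = 0.0938). Grin2b and the CA3 list had r = 0.87 (permutation p = 0.00243, adjusted 0.0316), but rho = 0.73 missed the threshold (permutation p = 0.0188, adjusted 0.122). The r of Grin2b with the CA3 list was 0.71 without the 2 farthest and 0.72 without WTEE 10, where it did not pass (adjusted permutation p = 0.139). The mean log2 level of the CA3 list was 4.28 in WTSH, 4.10 in WTEE, 4.27 in KDSH and 4.13 in KDEE, lower in the enriched groups as Grin2b was. Grin2b ran against the interneuron list by rho (-0.805, permutation p = 0.00091, adjusted 0.0355). By r (-0.73, permutation p = 0.0274, adjusted 0.119) it missed the threshold. Grin2a ran against the thalamus and cerebellum list by r (-0.75, permutation p = 0.00307, adjusted 0.0342). The rho of -0.76 missed the threshold (permutation p = 0.00465, adjusted 0.0518). Without WTEE 10 the r of Grin2a with that list was -0.79 (adjusted permutation p = 0.0432). The interneuron list lay higher in the enriched groups (6.38 in WTSH, 6.49 in WTEE, 6.32 in KDSH, 6.47 in KDEE). So did the oligodendrocyte (9.06, 9.25, 9.01 and 9.30) and endothelial lists (4.98, 5.08, 4.96 and 5.09). The choroid plexus list differed most, at 2.41, 3.02, 0.92 and 3.33, and spread widely between mice. Its summed level was 27.4 to 4281 CPM in WTSH, 43.8 to 5796 in WTEE, 24.2 to 101 in KDSH and 83.5 to 9482 CPM in KDEE. With it r was -0.59 for Grin1 (permutation p = 0.0128, adjusted 0.0695) and -0.54 for Grin2b (permutation p = 0.0817, adjusted 0.206). The part of these cell markers in the differences of Grin2b was not tested.

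For each member the genes with the most similar profile over the 21 libraries were ranked by r among 15092 genes of at least 1 CPM on average, as a description. Grin2b had the closest companions, Ntrk3 (r = 0.98), the receptor of neurotrophin-3, Cacna1e (r = 0.97), a calcium channel subunit, and Zfp318 (r = 0.97). They stayed at 0.94, 0.93 and 0.93 without WTEE 10. Grin3a was most like Ocrl (r = 0.91), Sstr1 (r = 0.91), a somatostatin receptor, and Tenm1 (r = 0.905), which were at 0.84, 0.82 and 0.82 without WTEE 10. Grin2d was most like Ubqln2 (r = 0.905), Slc29a2 (r = 0.89) and Gaa (r = 0.88). For Grin1 they were Ggt7 (r = 0.90), Vps9d1 (r = 0.89) and Sgsm3 (r = 0.89), and for Grin2c Brsk1 (r = 0.89), Map3k10 (r = 0.87) and Jph3 (r = 0.85). Grin2a had the loosest match, AI115009 (r = 0.83), RP24-250L13.2 (r = 0.80) and Gm26871 (r = 0.80), which are named only by clone or gene-model identifiers. No gene was among the 3 most similar of more than 1 member.

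The 3 libraries left out by the study differed from the kept ones in Grin2a and Grin2b. WTSH 4 held 361 CPM of Grin2a and 784 CPM of Grin2b, and WTSH 7 held 352 and 868 CPM, above all 21 kept libraries for both genes. For Grin2a these were 1.48 and 1.44 times the mean of the kept WTSH libraries, and for Grin2b 1.34 and 1.49 times. Their log2 ratios of Grin2a to Grin2b, -1.12 and -1.30, stayed within the range of the kept libraries. KDSH 6 was low for both, at 174 CPM of Grin2a and 406 CPM of Grin2b, with a log2 ratio of -1.22, and its Grin2a level was below all 21 kept libraries. Grin2d was below all kept libraries in WTSH 4, at 13.1 CPM, and above them in KDSH 6, at 22.7 CPM. Grin1 in the 3 libraries, 348 to 365 CPM, lay within the kept range. Of all genes tested, 15.1% in WTSH 4, 14.4% in WTSH 7 and 3.66% in KDSH 6 lay above every kept library, and 15.7%, 13.8% and 4.59% below every one. WTSH 4 and 7 also had 32.2% and 33.0% of their read pairs outside annotated exons, against 16.4% in KDSH 6. With all 24 libraries the log2 fold change for WTEE against WTSH became -0.395 for Grin2b and -0.22 for Grin2a, with adjusted p values of 0.246 and 0.322, and that of Grin3a was -0.25 with an adjusted p of 0.246 by edgeR.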

How the data were processed

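Hippocampal poly(A) RNA of 24 mice was sequenced in pairs (TruSeq libraries, Illumina). Trimming by the authors used Skewer, alignment to GRCm38 used STAR 2.5, and HTSeq 0.6.1p1 counted uniquely aligned pairs per gene irrespective of strand. The values they deposited are raw counts per gene symbol, which are not normalised. From 8.41% to 33.0% of read pairs fell outside annotated exons and 4.14% to 17.2% were ambiguous, and both classes were kept out of library sizes. Counts are of read pairs without molecular identifiers, so PCR copies cannot be told apart.

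Groups were taken from the labels. The main fits used the 21 libraries the study kept, in 1 model of 4 groups, with edgeR 4.0.16 (TMM, filterByExpr, quasi-likelihood test, R 4.3.3) and Benjamini-Hochberg adjustment over the 20187 genes that passed the filter, among them all 6 members. Calls used the thresholds of the study. DESeq2 1.42.0 was an alternative, and the code was tested on simulated data. Levels shown are CPM after TMM over all 24 libraries, so that kept and left-out libraries share a scale, and correlations used log2 CPM with a prior count of 2 over the 21. The log2 ratio of Grin2a to Grin2b counts was tested by exact two-sided permutation within strata, adjusted over 6 comparisons, and correlations by 100000 permutations within groups. Exon lengths and positions came from GENCODE M21 (GRCm38), in which 95.2% of the 49568 symbols were matched. No 2 libraries of a group agreed within sampling noise. Each library is 1 mouse, whereas cage and sequencing lane were not given in the sources used here, so p-values measure the spread between mice only.

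The members, the pathway and marker lists and the tests were chosen with earlier results of these data known. Named were all members, pathway genes with an unadjusted p under 0.01 in a comparison of 2 groups or the interaction (at most 4 per comparison), the 3 genes most like each member, and Rps6ka5. Nos1, Neto1, Rest and Slc7a10 were named outside this rule. Alternatives were another test, size factors, filters, sets of libraries, a robust fit and leaving out each library. The correlations and pathway values without WTEE 10 were added after the data were seen. The form of the DESeq2 fit (an intercept and named contrasts) replaced a form without an intercept after the counts of the first had been seen, and both are given.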

Additional observations from a re-analysis of the deposited data

Results flagged for a closer look

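In a group of 6 WTEE libraries, WTEE 10 lay farther from its nearest neighbour in the log2 ratio of Grin2a to Grin2b than Dixon's limit allows. Its value was -0.33, the other 5 lay between -1.32 and -1.01, and the gap was 0.688 of the group's range against a critical value of 0.625. This was 1 of 28 groups of values tested, and chance marks about 1 group in 20. In this library Grin2b stood at 276 CPM, the lowest of the 21 libraries, and Grin2a at 220 CPM, within the range of the other WTEE libraries.

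The remaining results come from libraries that the study did not use, WTSH 4 and WTSH 7 among them for ribosomal RNA contamination. Grin2a reached 361 CPM in WTSH 4 and 352 CPM in WTSH 7, above all 21 kept libraries (185 to 291 CPM). Grin2b reached 784 CPM in WTSH 4 and 868 CPM in WTSH 7, above the kept range of 276 to 648 CPM. Grin2d was 22.7 CPM in KDSH 6, against at most 22.3 CPM in the kept libraries. The share of read pairs outside annotated exons moved with these values in WTSH 4 and 7, and its part in them was not tested.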

How the results depend on the processing

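No paired analysis was possible because mouse numbers are not shared between groups. Every member stayed uncalled under each alternative, 30 for each comparison of 2 groups and 29 for the others, the 24-library and leave-one-out fits included. Of the refitted member differences 1202 kept their direction and 40 turned, and the cause was not tested.

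DESeq2 called 2 genes for WTEE against WTSH, 14 for KDEE against KDSH, 118 for KDEE against WTEE, 41 for housing and 20 for the interaction, where edgeR called 0, 0, 0, 1 and 0. The form of the DESeq2 fit run first, without an intercept, called 2, 14, 113, 41 and 20. All 24 libraries gave 1 gene for WTEE against WTSH and 15 for housing, and a fit of only KDEE and KDSH gave 1. Leaving out 1 library at a time gave 0 to 1 genes for WTEE against WTSH (1 without WTEE 13) and 0 to 6 for housing (0 without WTSH 5 or 19, 2 without KDSH 18 or KDEE 20, 6 without WTEE 21).

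Turned log2 fold changes were, without a filter, Grin1 for KDSH against WTSH (-0.000776) and Grin2c for genotype (-8.94e-05). With all 24 libraries they were Grin1 (0.0123) and Grin2c (0.0115) for WTEE against WTSH, Grin2b (-0.191) and Grin2c (0.013) for KDSH against WTSH, Grin2b for genotype (-0.0849), and Grin2a (-0.137) and Grin2b (-0.213) for the interaction. With KDSH 6 added they were Grin2b for KDSH against WTSH (-0.00372) and the interaction (-0.0255). Leaving out 1 library, the ranges that crossed 0 were, for WTEE against WTSH, Grin1 -0.0716 to 0.0408, Grin2a -0.0742 to 0.027 and Grin2c -0.0887 to 0.0168. For KDSH against WTSH they were Grin1 -0.0483 to 0.064, Grin2c -0.104 to 0.0011 and Grin3a -0.0427 to 0.0421. The others were Grin2b for KDEE against WTEE (-0.102 to 0.084) and genotype (-0.0116 to 0.0828), Grin2c for housing (-0.00766 to 0.0451) and genotype (-0.0233 to 0.0294), and Grin2b (-0.0023 to 0.182) and Grin2d (-0.0093 to 0.0982) for the interaction.

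Leave-one-out ranges of the log2 ratio of Grin2a to Grin2b were -0.298 to -0.0987 for KDEE against WTEE, 0.102 to 0.201 for housing, -0.219 to -0.119 for genotype and -0.041 to 0.158 for the interaction. With the longest transcript as length, Grin1 was at 86.3, Grin2a at 15.8, Grin2d at 3.41 and Grin3a at 5.92 CPM per kilobase. Of 15 pairs of members, those that passed by both r and rho numbered 0, or 2 centred on group means, 4 with all 24 libraries, 1 with other size factors and 1 without WTEE 10. Of 78 relations with marker lists 4 passed, or 2, 13, 2 and 7 under the same alternatives. The lowest count of any member in the 21 libraries was 459 (Grin2d).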
